A study of Mus musculus with 8 samples.

Results

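The E proteins and their ID antagonists were followed here in CD4 single-positive (CD4SP) thymocytes, T cells of the thymus that carry CD4 and no CD8. The genes are Tcf3, Tcf4 and Tcf12, which encode E proteins, and Id1, Id2 and Id3, which encode ID proteins. Each of these 6 genes has 1 probe set that the platform annotation gives to that gene alone, among 22180 genes represented in this way. The Tcf3 and Tcf4 measured are those of the E2A and E2-2 proteins and not the TCF/LEF factors of WNT signalling that once shared these names. The sorted cells came from C57BL/6 mice of 2 genotypes, Pggt1b knockout (KO, 4 arrays) and wild type (WT, 4 arrays). Pggt1b encodes a subunit of the protein prenyltransferase that attaches the geranylgeranyl lipid of the mevalonate pathway to small GTPases, and the study asked how this modification bears on thymocyte egress. The sources used here do not give the allele, any Cre driver, the age of the mice or whether each array stands for a separate animal, so the spread behind the p-values is that of these samples alone and may be technical. Values are log2 intensities, and a probe set's level cannot be set against that of another gene. The targeted gene Pggt1b read 7.89, 7.57, 7.69 and 7.86 in the KO arrays, against 8.35, 8.38, 8.29 and 8.36 in the WT arrays, all KO arrays being lower.

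E proteins are basic helix-loop-helix factors that pair with each other and bind E boxes, DNA sites with the letters CANNTG. ID proteins have the helix-loop-helix but lack the basic, DNA-contacting region, so an E protein held by an ID protein does not bind DNA. In the thymus E2A (Tcf3) and HEB (Tcf12) drive antigen receptor rearrangement and hold cells at the double-positive stage, while signals of the T cell receptor raise Id3 through ERK and EGR factors. Id2 is best known from innate lymphoid, natural killer and effector T cells, and E2-2 (Tcf4) from plasmacytoid dendritic cells.

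The regulatory DNA just before the starts of Id2 and Id3 is shown because these were the ID genes called different, in opposite directions. RefSeq's GRCm38.p6 promoter table matched 4 of the 6 genes. The 250 bases before the start run 5′ to 3′ on the gene's strand, chr12:25096093-25096342 (minus strand) for Id2 and chr4:136143572-136143821 (plus strand) for Id3. Capitals mark E boxes (CANNTG), the EGR letters GCGNGGGCG and the GC element GGCGCC bound by SMADs of the BMP pathway, all searched on both strands.
Id2: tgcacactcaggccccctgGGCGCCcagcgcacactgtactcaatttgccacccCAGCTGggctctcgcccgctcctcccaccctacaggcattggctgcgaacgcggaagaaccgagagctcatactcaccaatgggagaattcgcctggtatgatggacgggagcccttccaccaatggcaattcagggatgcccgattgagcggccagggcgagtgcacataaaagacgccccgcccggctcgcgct
Id3: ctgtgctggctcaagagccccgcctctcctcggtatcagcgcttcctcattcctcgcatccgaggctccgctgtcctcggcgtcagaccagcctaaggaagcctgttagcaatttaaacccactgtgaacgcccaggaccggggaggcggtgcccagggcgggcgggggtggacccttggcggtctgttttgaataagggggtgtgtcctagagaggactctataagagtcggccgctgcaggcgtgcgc
The Id2 window held 1 E box, CAGCTG, from 196 to 191 bases before the start, and 1 GGCGCC from 231 to 226 bases before it. The Id3 window held 0 of these motifs. Among 32851 promoter windows of the same length 66.2% held an E box, 13.0% CAGCTG, which is 1 form of the E box, 4.70% the EGR letters and 9.59% GGCGCC. These matches are a description of the windows, and both windows had a GC content of 62.8%.

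Levels of the E protein genes Tcf3 and Tcf4 and of Id2 were lower in KO than in WT, and Id3 was higher. Tcf4 fell 1.26-fold, Tcf3 1.17-fold and Id2 1.29-fold, while Id3 rose 1.19-fold. Tcf12 did not pass the test, and Id1 was too dim to enter it. Thus 4 of 5 tested genes were called, against 13.0% of all 11585 tested genes (8.53% lower and 4.45% higher in KO). The family and the marker lists read below were chosen with earlier results of these data known, so such counts are a description. A call is an adjusted p under 0.05 in limma with Benjamini-Hochberg adjustment over all tested genes, and a gene was tested where its mean over all arrays reached a log2 value of 5.56. KO and WT arrays did not overlap for these same 4 genes, nor for 20.3% of all tested genes (13.5% lower and 6.79% higher in KO). In such sorted samples fewer cells that hold a transcript and less of it per cell cannot be told apart.

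**Figure D1:**
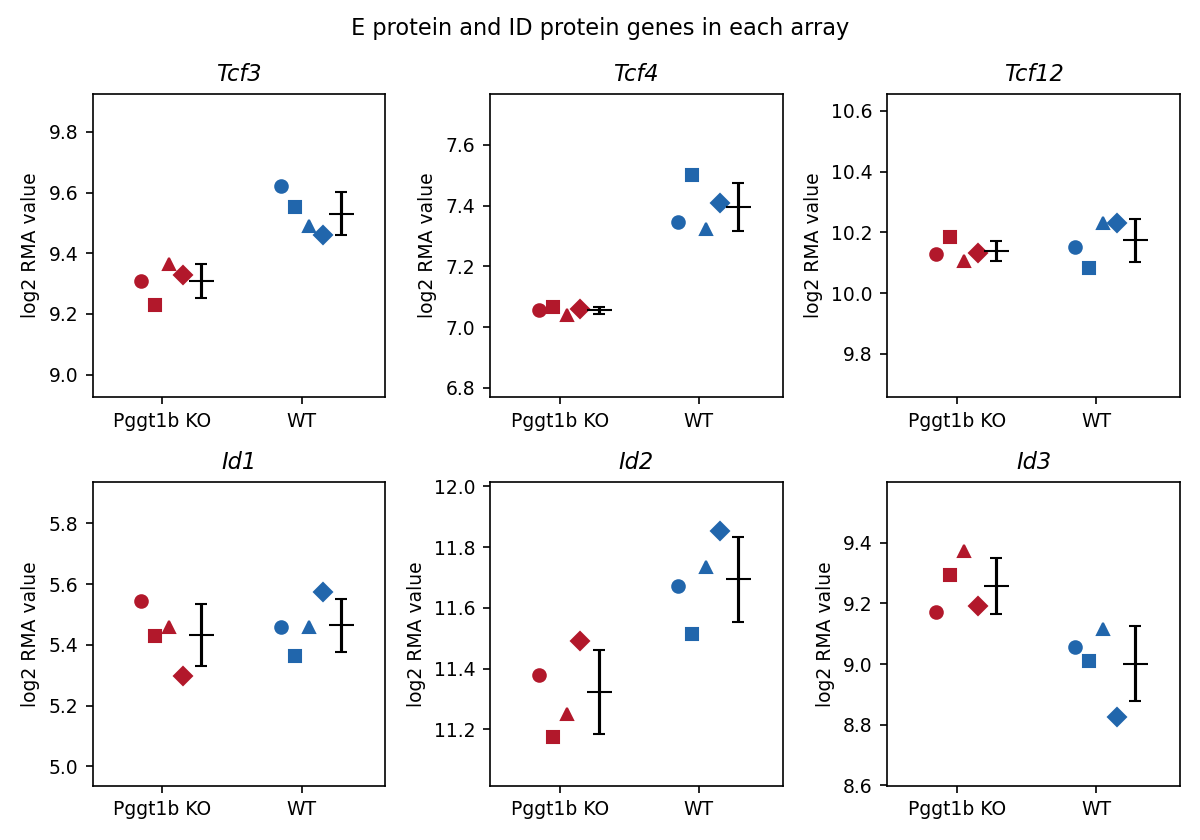
Log2 RMA value of each E protein and ID protein gene in every array, with KO arrays left and WT arrays right in each panel. Symbols are replicates 1 to 4, and bars are the mean and SD (n = 4 per genotype). Every panel spans 1 log2 unit. The groups do not overlap for Tcf3, Tcf4, Id2 and Id3 and overlap for Tcf12 and Id1.

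Tcf4, which encodes E2-2, had the smallest adjusted p of the family. Its log2 values (probe set 17351594) were 7.06, 7.07, 7.04 and 7.06 in the KO arrays, against 7.34, 7.50, 7.32 and 7.41 in the WT arrays. The KO arrays lay within a narrow band, below every WT array. The means were 7.06 ± 0.012 in KO and 7.39 ± 0.079 in WT (SD, n = 4 each), a log2 difference of -0.34 ± 0.051 (SE, 95% confidence interval -0.45 to -0.22, limma adjusted p = 0.00379). By p the gene ranked 203 of 11585. The call held under each omission of 1 array, with adjusted p up to 0.0140, and ended without KO replicates 1 and 2 together (adjusted p = 0.0544).

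Because Tcf4 marks plasmacytoid dendritic cells and is also made by B cells, markers of both were read beside it. Of 4 tested plasmacytoid markers 0 were called by limma, against 13.0% of all tested genes, with 1 at an unadjusted p under 0.05. The summed intensity of all 7 was 683 to 773 in KO and 806 to 875 in WT, so these ranges did not overlap. Pacsin1, also a neuronal gene, was the brightest of them, at means of 8.72 log2 in KO and 8.93 in WT, and the one with an unadjusted p under 0.05 (limma adjusted p = 0.0697). The means of all 4 tested markers were lower in KO, with differences from -0.29 (Irf8) to -0.09 log2 (Ly6d), none of them called. Pacsin1 and Irf8 were named after their values were seen. The defining markers Siglech, Spib and Klk1 lay below the intensity filter on every array, with Siglech at means of 4.56 in KO and 4.51 in WT. Of the B cell markers 1, Cd79b, was tested and 0 were called by limma, with 0 at an unadjusted p under 0.05. The summed intensity of this list was 221 to 267 in KO and 207 to 250 in WT, and Ms4a1, Pax5 and Ebf1 were below the filter on every array. With no intensity filter Cd79a and Ebf1 differed by 0.15 and 0.18 log2, higher in KO (limma unadjusted p = 0.0479 and 0.0302, adjusted p = 0.280 and 0.221). Ms4a1 and Pax5 differed there by 0.01 and -0.08 log2. The part of such cells in the Tcf4 difference was not tested.

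Tcf3 encodes the E12 and E47 forms of E2A. It stood at 9.31, 9.23, 9.36 and 9.33 in the KO arrays, against 9.62, 9.55, 9.49 and 9.46 in the WT arrays (probe set 17242931). The groups did not overlap, with KO replicate 3 and WT replicate 4 the closest, at 9.36 and 9.46. Mean levels were 9.31 ± 0.057 in KO and 9.53 ± 0.072 in WT (SD, n = 4 each), a log2 difference of -0.22 ± 0.054 (SE, 95% confidence interval -0.34 to -0.10, limma adjusted p = 0.0272). Leaving out KO replicate 1, 2 or 4, or WT replicate 1 or 2, ended this call (adjusted p up to 0.0688). So did leaving out KO replicates 1 and 2 together (0.195), WT replicates 2 and 3 together (0.142), dropping the intensity filter (0.0620), testing all probe sets (0.0626) and a covariate for heat-shock expression (0.0717).

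Double-positive thymocytes depend on E2A, so their markers were read beside Tcf3. Of 5 tested markers of double-positive and CD8 cells 1 was called, against 13.0% of all tested genes. This was Cd8a, the CD8 alpha chain, which fell 1.67-fold (limma adjusted p = 0.0354). Omission of KO replicate 2 or 4 or of WT replicate 2 or 3 ended that call (adjusted p up to 0.0893), as did 7 of 12 other settings (up to 0.245). Cd8b1, the CD8 beta chain, stood at 10.46 ± 0.10 in KO and 10.59 ± 0.12 in WT (SD, n = 4 each) and was not called. The means of all 5 tested markers were lower in KO, with a median difference of -0.20 log2, against -0.03 over all tested genes. Arpp21 and Runx3, named after their values were seen, differed by -0.25 and -0.20 log2 and were not called. Their limma unadjusted p was 0.0957 and 0.0145, and the adjusted p 0.255 and 0.0822. The summed intensity of the list was 1968 to 2490 in KO and 2523 to 3108 in WT, so these ranges did not overlap. Cd8b1 and the called Cd8a were the brightest of the list and weigh most in this sum. Cd8b1 overlapped between genotypes, with 10.555 log2 in KO replicate 1 and 10.43 in WT replicate 1. How far the separation of the sum rests on Cd8a was not tested. Rag2, an E protein target that takes part in cutting receptor gene segments and is named after its value was seen, stood at 5.62 ± 0.17 in KO and 5.80 ± 0.17 in WT (SD, n = 4 each) and was not called (limma adjusted p = 0.288). The part of double-positive cells in the Tcf3 difference was not tested.

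Tcf12, which encodes HEB, gave no call. The KO arrays read 10.13, 10.18, 10.11 and 10.13, against 10.15, 10.08, 10.23 and 10.23 in the WT arrays (probe set 17528714). Both groups overlapped, with WT replicate 2 the lowest of all 8. Averages were 10.14 ± 0.033 in KO and 10.17 ± 0.072 in WT (SD, n = 4 each), a log2 difference of -0.04 ± 0.051 (SE, limma adjusted p = 0.695). The 95% confidence interval ran from -0.15 to 0.08. The gene was not called under any setting tried, array scalings included.

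A ratio of 2 genes within an array does not change when the whole array is scaled by 1 factor. The log2 ratio of Tcf4 to Tcf12 was -3.07, -3.12, -3.07 and -3.07 in the KO arrays, against -2.81, -2.58, -2.91 and -2.82 in the WT arrays, so the groups were apart. For Tcf3 to Tcf12 the KO arrays ran from -0.95 to -0.74 and the WT arrays from -0.77 to -0.53, and they overlapped. The mean ratios thus differed by -0.30 and -0.19 log2, which describes unequal change and was not tested.

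Id2, the ID protein of innate and effector lymphocytes, had the largest difference of the family in the fit to all arrays, though that of Tcf4 was larger under 5 other settings, a second quantile normalization among them. It read 11.38, 11.17, 11.25 and 11.49 in the KO arrays, against 11.67, 11.51, 11.73 and 11.85 in the WT arrays (probe set 17280310). KO replicate 4 and WT replicate 2 nearly met, at 11.49 and 11.51, yet the groups did not overlap. Group means were 11.32 ± 0.14 in KO and 11.69 ± 0.14 in WT (SD, n = 4 each), a log2 difference of -0.37 ± 0.088 (SE, 95% confidence interval -0.57 to -0.17, limma adjusted p = 0.0247). The level fell by 22.6%. Omitting KO replicate 1, 2 or 3, or else WT replicate 3 or 4, ended the call (adjusted p up to 0.0644), as did testing all probe sets (0.0610) and the fits without KO replicates 1 and 2 (0.162) or WT replicates 2 and 3 (0.0690).

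Part of the markers of innate-like, effector and natural killer cells fell beside Id2. Of 7 tested markers 3 fell and 0 rose, against 8.53% lower and 4.45% higher among all tested genes. The list median was -0.37 log2, against -0.03 over all tested genes. Nkg7, a cytotoxic granule protein, fell 1.78-fold, Zbtb16, which encodes the innate-like T cell factor PLZF, 1.61-fold, and Il2rb, a receptor chain for interleukins 2 and 15, 1.40-fold (limma adjusted p = 0.0179, 0.0453 and 0.0138). Zbtb16 stood at 5.62, 5.81, 5.59 and 5.64 in the KO arrays, against 6.00, 6.48, 5.97 and 6.98 in the WT arrays. WT replicate 4 held the highest value of Id2 and of Zbtb16, Nkg7, Il2rb and Tbx21. Ccl5 and Eomes were highest in WT replicate 2, at 8.40 and 6.57, where Id2 had its lowest WT value, 11.51. Cxcr3 was highest in WT replicate 3, at 7.13. Tbx21, Ccl5, Eomes and Cxcr3, named after their values were seen, were not called, and Eomes differed by only -0.01 log2. The summed intensity of all 10 markers was 1143 to 1359 in KO and 1436 to 2055 in WT, and Klrb1c, Gzma and Gzmb were below the filter on every array. The called Il2rb, at means of 9.10 log2 in KO and 9.59 in WT, was the brightest marker and weighs most in this sum. How far the sum differs without Il2rb was not tested. The part of these cells in the Id2 difference was not tested.

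Id3, the ID protein induced by receptor signals, went the other way. Its values were 9.17, 9.29, 9.37 and 9.19 in the KO arrays, against 9.06, 9.01, 9.11 and 8.83 in the WT arrays (probe set 17420016). KO replicate 1 and WT replicate 3 were closest, at 9.17 and 9.11, and WT replicate 4 was the lowest. Means came to 9.26 ± 0.093 in KO and 9.001 ± 0.12 in WT (SD, n = 4 each), a log2 difference of 0.26 ± 0.073 (SE, 95% confidence interval 0.09 to 0.42, limma adjusted p = 0.0475). The call stood just under the threshold. Each omission of 1 array ended it (adjusted p 0.0513 to 0.119), as did centring arrays on their medians (0.0658), a second quantile normalization (0.0590), array weights (0.0503), dropping the intensity filter (0.0917) and testing all probe sets (0.0978). Covariates for the number in the sample titles (0.0516) and for heat-shock expression (0.0712) did so too, as did leaving out KO replicates 1 and 2 (0.172) or WT replicates 2 and 3 (0.114). Its direction was the same under every setting.

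Id3 and Id2 were also set against each other within each array. The log2 ratio of Id3 to Id2 was -2.21, -1.88, -1.88 and -2.30 in the KO arrays, against -2.62, -2.51, -2.62 and -3.03 in the WT arrays. All KO arrays exceeded all WT arrays, and the mean ratio was 0.63 log2 higher in KO. For Tcf3 to Id3 the KO arrays ran from -0.06 to 0.14 and the WT arrays from 0.37 to 0.63, a mean shift of -0.48 log2. In both ratios the genes differed in opposite directions, each without overlap. Separation of these ratios was therefore fixed in advance and adds nothing to the differences of the single genes. Tcf3 to Id2 overlapped between genotypes, with a shift of 0.15. Only these shifts can be read, since the absolute ratio of 2 probe sets also holds their probe responses.

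Id1 and Id4, the ID genes of endothelial and neural cells, were near background. Id1 (probe set 17377778) stood at 5.43 ± 0.10 in KO and 5.46 ± 0.087 in WT (SD, n = 4 each) and reached the filter on 1 of 8 arrays. With no intensity filter, where 4.15% of genes were called, its log2 difference was -0.03 ± 0.069 (SE, limma adjusted p = 0.880). Id4, outside the 6 genes, had means of 5.53 ± 0.15 in KO and 5.49 ± 0.16 in WT (SD, n = 4 each). Of 3 tested markers of endothelial and stromal cells 1 was called, against 13.0% of all tested genes. This was Pecam1, an adhesion molecule that T cells also carry, which rose 1.18-fold (limma adjusted p = 0.0286). The call ended on omission of KO replicate 1, 2 or 3 or of WT replicate 2, 3 or 4 (adjusted p up to 0.0769). The list's summed intensity, 2148 to 2301 in KO and 1837 to 2107 in WT, was mostly that of Pecam1, at means of 10.95 log2 in KO and 10.70 in WT. The other 6 markers averaged at most 6.45 in KO and 6.36 in WT, differed in both directions, as Cdh5 by 0.09 and Col1a1 by -0.15 log2, and were not called or not tested. Kdr, Col1a2 and Pdgfra were below the filter on every array. The part of such cells in the Id1 values was not tested.

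**Figure D2:**
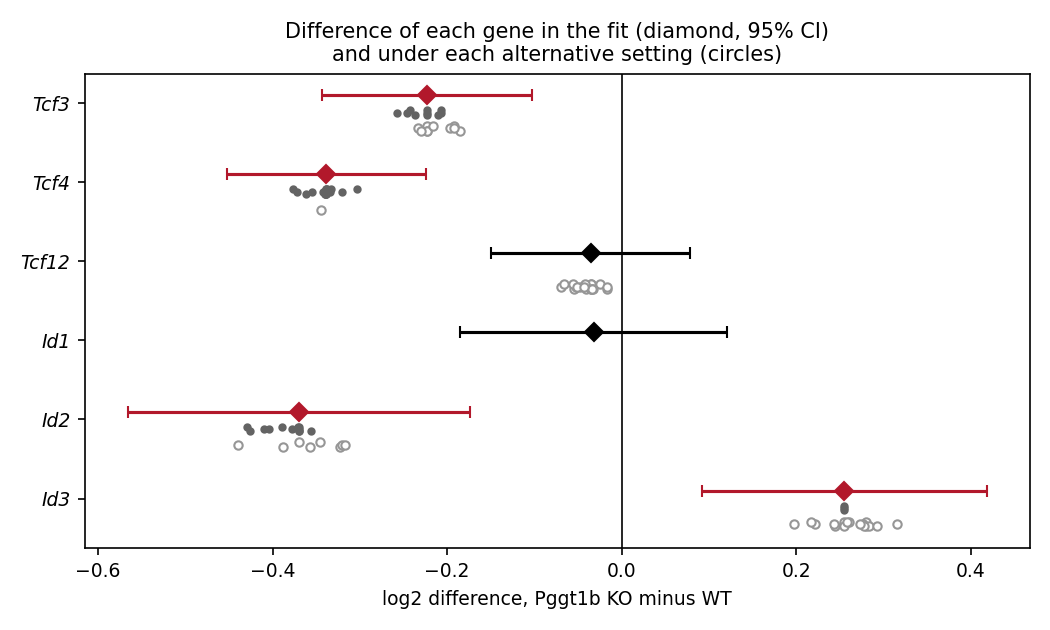
Log2 difference, KO minus WT, of each gene. Diamonds with bars are the estimate and its 95% confidence interval (red where called, black where not, Id1 from the fit with no intensity filter), and circles below them are the alternative settings, filled on an upper line where the gene was called and open on a lower line where not. The Id3 estimate of 0.26 lies above 0 under every setting with most circles open, whereas Tcf4 at -0.34 has 1 open circle.

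**Figure D3:**
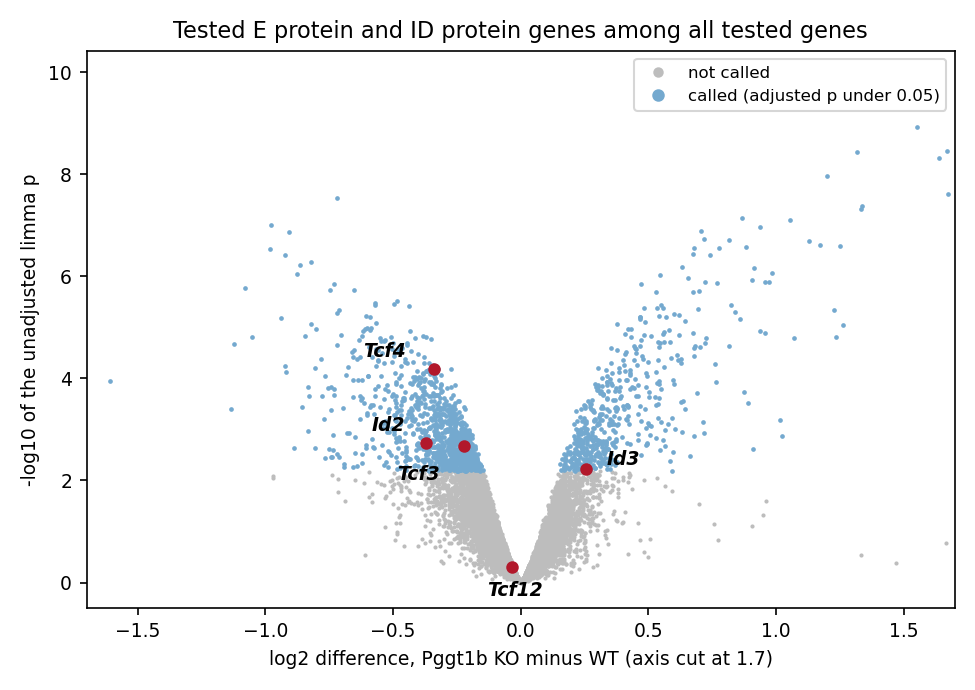
Log2 difference, KO minus WT (x axis), and -log10 of the unadjusted limma p (y axis) of 11585 tested genes, called ones in blue. Tested E protein and ID protein genes are the red points. The axis leaves out 5 genes beyond 1.7 log2, and the called family members lie between -0.37 and 0.26 log2.

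The absolute difference of Id2 exceeded that of 94.3% of tested genes, that of Tcf4 93.1%, of Id3 87.1% and of Tcf3 83.2%, while that of Tcf12 exceeded 20.8%. For each of the 4 called genes the two-sided exact permutation p was 0.0286 (n = 4 per genotype), the smallest that 70 divisions of the arrays allow. It was 0.429 for Tcf12 and 0.629 for Id1.

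Genes that E proteins are known to bind or regulate in lymphocytes were read next. This list and the other pathway lists below were chosen with earlier results of these data known. Their counts beside the share of all tested genes are thus a description. Of 15 tested targets 1 rose and 3 fell, so 4 were called, against 13.0% of all tested genes, and their median difference was -0.01 log2, against -0.03 over all tested genes. The repressor Gfi1 fell 1.33-fold (log2 -0.41 ± 0.072 SE, limma adjusted p = 0.00755), Cxcr5, the chemokine receptor of follicles, fell 1.23-fold, and Zbtb16 fell as above. Dtx1, which encodes the Notch pathway protein Deltex1, rose 1.26-fold, with 10.31, 10.40, 10.33 and 10.47 in the KO arrays, against 9.88, 10.19, 9.93 and 10.20 in the WT arrays. Of the 15 targets these same 4 were separated between genotypes, against 20.3% of all tested genes. Among uncalled targets, named after their values were seen, Socs1, an inhibitor of cytokine signalling, had the largest difference, -0.32 log2 (limma unadjusted p = 0.0296, adjusted p = 0.125), with overlapping groups. Cd4 differed by -0.01 log2, Notch1 by -0.01, Foxo1 by 0.02, Ptcra, the pre-T cell receptor alpha chain, by -0.03 and Il7r, the interleukin 7 receptor, by 0.17 (limma adjusted p = 0.110 to 0.941). The Gfi1 call held under each omission of 1 array but not without KO replicates 1 and 2 together or WT replicates 2 and 3 together. Those of Dtx1, Cxcr5 and Zbtb16 ended on omission of any KO array. WT replicate 1 or 3 also ended that of Dtx1, WT replicate 1, 2 or 4 that of Cxcr5 and WT replicate 2 that of Zbtb16 (adjusted p up to 0.0796, 0.0949 and 0.106).

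Upstream of the Id genes, 3 EGR factors and Smad3 fell, and Smad4 and Smad7 rose. Thus of 12 tested genes of the inducing pathways 2 rose and 4 fell, against 4.45% higher and 8.53% lower among all tested genes. The list also holds the inhibitory Smad7, 1 of the 2 that rose, so these rises are not of inducers alone. The list median was -0.08 log2, against -0.03 over all tested genes. The receptor-induced factors Egr1, Egr2 and Egr3, known to raise Id3, fell 1.28-fold, 1.27-fold and 1.30-fold (limma adjusted p = 0.00733, 0.0237 and 0.0205). Egr1 read 9.46, 9.43, 9.48 and 9.38 in the KO arrays, against 9.82, 9.77, 9.94 and 9.66 in the WT arrays, so its fall stood beside a higher Id3 in the same arrays. On the TGF-beta and BMP side, which also raises Id genes, the inhibitory Smad7 rose 1.20-fold (limma adjusted p = 0.0209). Smad4, the shared SMAD, rose 1.15-fold, and Smad3, a TGF-beta effector, fell 1.22-fold (limma adjusted p = 0.0356 and 0.0466), both named, as are the next 3 genes, after their values were seen. Smad1 and Smad5, the BMP effectors, differed by -0.08 and 0.04 log2 and were not called. Acvr1, a BMP receptor below the intensity filter, stood at 5.05 ± 0.053 in KO and 5.43 ± 0.11 in WT (SD, n = 4 each, limma adjusted p = 0.0118 with no intensity filter). The other listed receptors, also named after their values were seen, differed less. Bmpr2, Tgfbr1 and Tgfbr2 differed by -0.10, 0.03 and -0.07 log2 and were not called. Bmpr1a, below the filter and not tested, differed by -0.02 log2. The Egr1 call held under each omission of 1 array, but not without KO replicates 1 and 2 together or WT replicates 2 and 3 together. KO replicate 3 or 4 or WT replicate 3 or 4 decided the call of Egr2 (adjusted p up to 0.0556), KO replicate 1 or WT replicate 2 or 3 that of Egr3 (0.0592), and KO replicate 1, 2 or 4 or WT replicate 2 that of Smad7 (0.0559). The Smad4 call ended without any 1 array other than WT replicate 3, and the Smad3 call without any other than KO replicate 4 (adjusted p up to 0.0909 and 0.0923).

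Among genes that set the lifetime of E and ID proteins, Asb2 had the smallest adjusted p of the 4 pathway lists. Of 7 tested ones 3 fell and 0 rose, against 8.53% lower and 4.45% higher among all tested genes, with a median of -0.09 log2. Asb2, a ubiquitin ligase subunit that can drive the breakdown of E2A, fell 1.63-fold, with 7.07, 7.16, 7.34 and 7.07 in the KO arrays, against 7.81, 8.01, 7.68 and 7.98 in the WT arrays (log2 -0.71 ± 0.088 SE, limma adjusted p = 0.00157). Every KO array lay below every WT array, and the call held under every setting tried. Skp2, which also takes part in E2A turnover, fell 1.19-fold, and Fzr1, the APC/C activator that targets ID proteins, 1.15-fold (limma adjusted p = 0.0253 and 0.0256). Usp1, which removes ubiquitin from ID proteins and is named after its value was seen, and the ligase Huwe1 differed by -0.09 and 0.08 log2 and were not called. Omitting KO or WT replicate 2 or 3 ended the calls of Skp2 and Fzr1, and omitting KO replicate 4 also that of Skp2 (adjusted p up to 0.0680 and 0.0716).

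Partners and cofactors of E proteins formed the last list. Of 9 tested genes 0 passed limma's test, against 13.0% of all tested genes, and 0 had an unadjusted p under 0.05. The largest difference was that of Tal1, a blood-lineage partner, at 0.10 log2 (limma adjusted p = 0.277). The acetyltransferase genes Ep300 and Crebbp, whose products bind E proteins, differed by 0.08 and 0.03, and the LIM-only gene Lmo2 by -0.06. The list median was -0.01 log2.

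**Figure D4:**
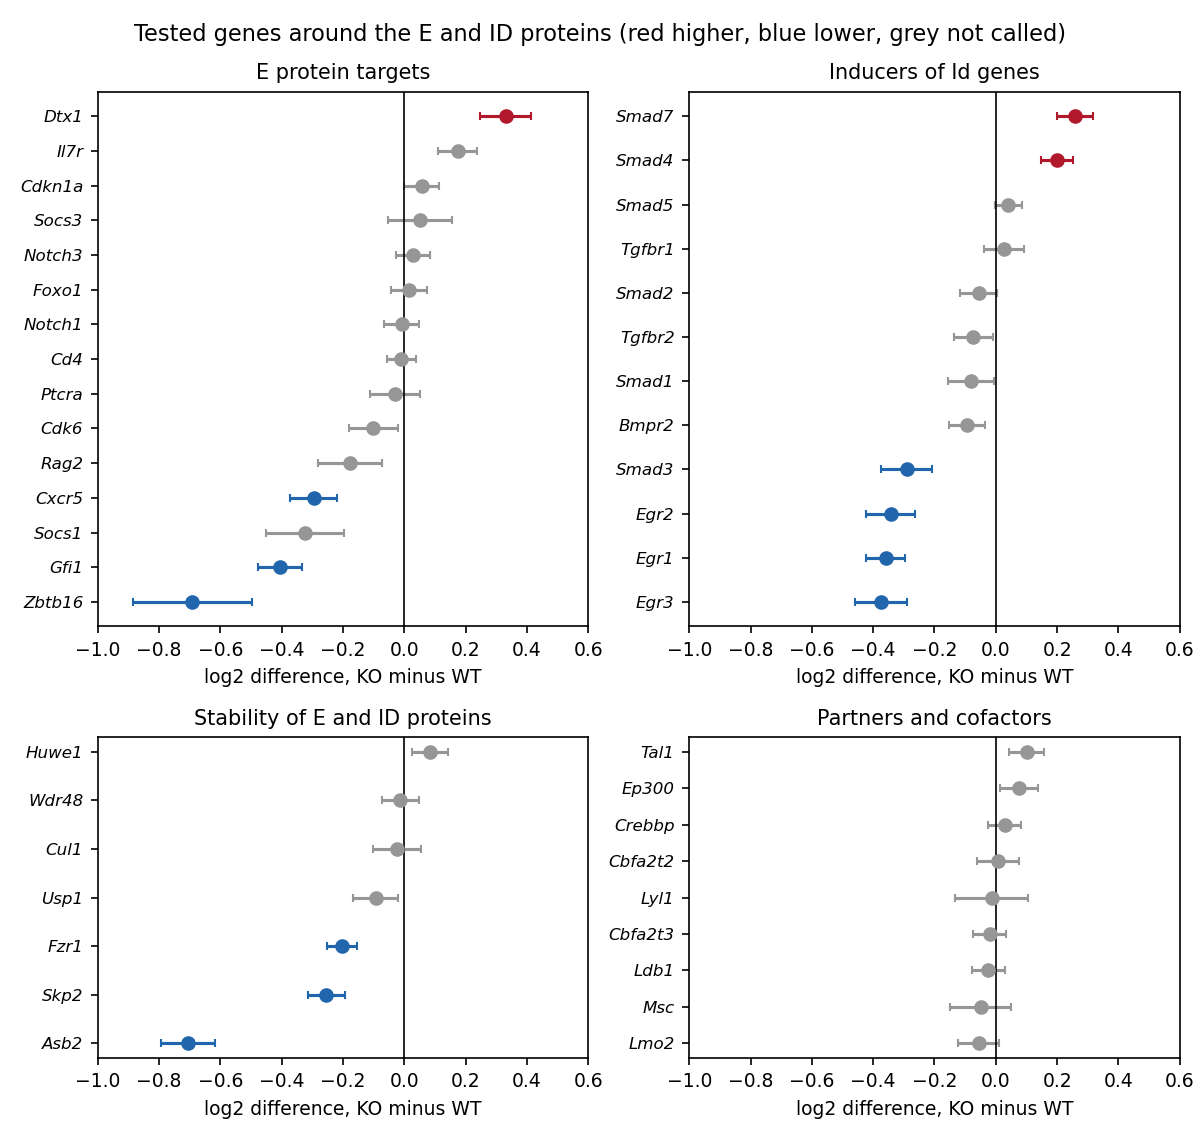
Log2 difference, KO minus WT, with its SE for each tested gene of 4 lists, called ones in red (higher) or blue (lower) and others in grey. Asb2 at -0.71 and Zbtb16 at -0.69 are the lowest, and the cofactors lie around 0.

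Each tested family member was also set beside the genes whose levels followed it most closely over the 8 arrays, which share genotype and array. Tcf3 was followed by Arhgap20, Hemk1 and Sh3rf1 (Pearson r = 0.983, 0.983 and 0.982). Tcf4 was followed by Emid1, Bbs7 and the actin-severing gene Gsn (r = 0.995, 0.985 and 0.983). For these the r left after removal of each genotype's mean was 0.82 to 0.97. Id2 went with Clptm1l, Parp12 and Denr (r = 0.987, 0.983 and 0.982, and 0.96 each within genotypes). Id3 went with Slfn10-ps, Arhgap1 and Ugcg (r = 0.959, 0.947 and 0.947, and 0.84 to 0.92 within genotypes). Tcf12 went with Wnt11, Rabgef1 and Cd3eap (r = 0.960, 0.937 and 0.925). These values are a description of 8 arrays. Id2 and Id3 themselves had r = -0.87 over all arrays and -0.60 within genotypes, while Tcf3 and Tcf4 had 0.85 and -0.09.

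**Figure D5:**
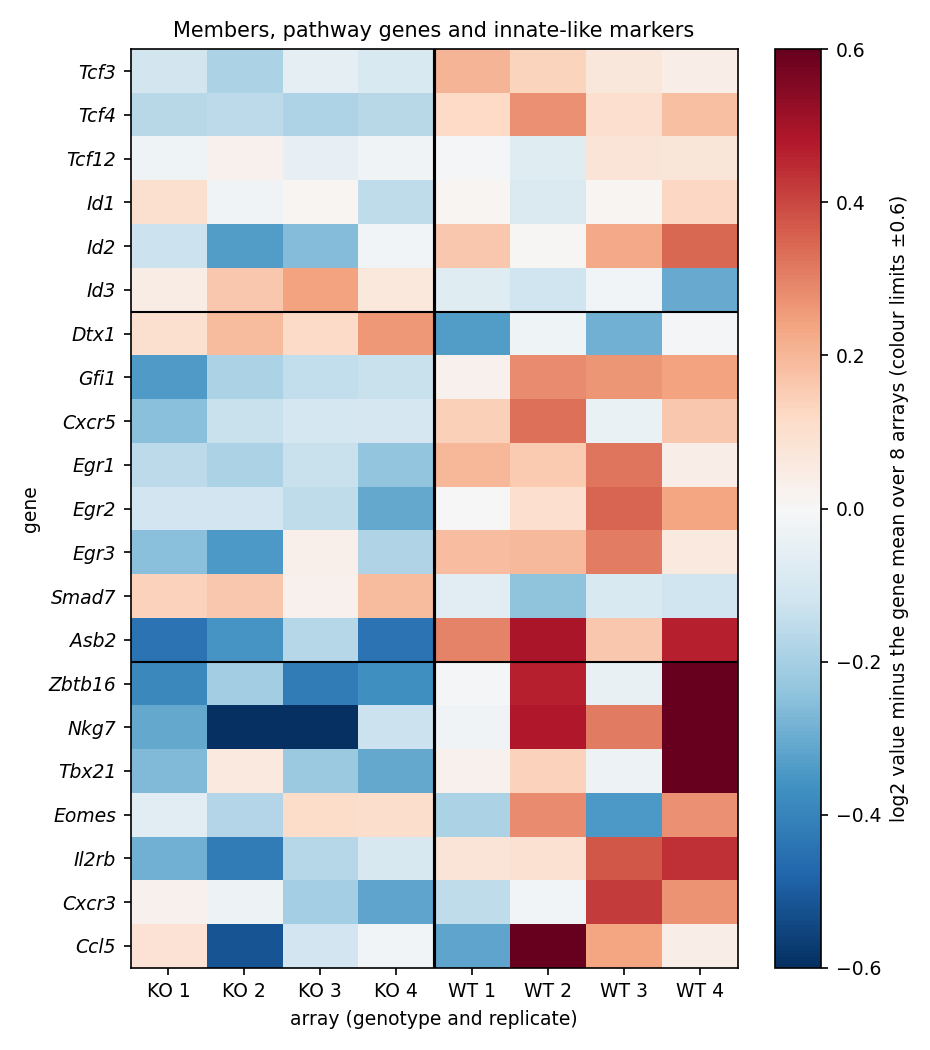
Log2 value minus the gene's mean over 8 arrays, by gene (rows) and array (columns, KO left of WT). The top block holds the E protein and ID protein genes, the middle one genes of the pathway lists and the bottom one tested innate-like markers. Id3, Dtx1 and Smad7 are higher in the KO arrays. WT replicate 4 is highest for Id2 at 11.85 and Zbtb16 at 6.98, and WT replicate 2 for Ccl5 at 8.40 and Eomes at 6.57.

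All 6 CD4SP markers measured were above the intensity filter in both genotypes, from Zbtb7b at means of 8.01 log2 in KO and 8.01 in WT to Cd3e at 12.47 in KO and 12.50 in WT. Gata3, a CD4-lineage factor, fell 1.20-fold (limma adjusted p = 0.0144), the 1 call among these 6, against 13.0% of all tested genes. Cd3e, Cd4, Cd5, Ccr7 and Zbtb7b were not called. The list's summed intensity was 21354 to 22391 in KO and 21604 to 22719 in WT. Among regulatory T cell markers 1 of 5 fell, Tnfrsf18, 1.25-fold (limma adjusted p = 0.00979), while Foxp3 was not called, with a summed intensity of the list of 2085 to 2527 in KO and 2473 to 2777 in WT. Of 2 tested myeloid markers 0 were called by limma, 0 also at an unadjusted p under 0.05, and the list's summed intensity was 219 to 268 in KO and 232 to 268 in WT. The heat-shock genes Hspa1a and Hspa1b averaged 10.34, 9.79, 4.57 and 8.25 log2 in the KO arrays, against 5.27, 6.36, 8.58 and 6.74 in the WT arrays. They varied widely within each genotype, and the part of this in the differences above was tested only through the covariate. Under it Tcf4 and Id2 kept their calls (limma adjusted p = 0.0145 and 0.0492), and Tcf3 and Id3 lost theirs (0.0717 and 0.0712).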

How the data were processed

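Biotinylated cDNA from CD4SP thymocyte RNA of 4 KO and 4 WT samples was hybridised to Mouse Gene 2.0 ST arrays, per the labels. The deposited log2 values were made by the authors by RMA (the submitters' processing notes name Affymetrix Expression Console, version 1.1), per the labels. The sources used here name no genome build or filter. Of 41345 probe sets, 23521 carry 1 gene symbol in the platform annotation, 1814 several, and 16010 none there. The brightest probe set, here the one with the highest mean over all arrays, stood for a gene (22180 genes), and 11585 genes whose mean reached 5.56, the median over probe set means, were tested with limma 3.58.1 in R 4.3.3 (lmFit, eBayes, two-sided, genotype only, Benjamini-Hochberg). The fit was tested on simulated data. Replicates are numbered in order of deposit and pair no samples. The family, the 4 pathway lists and the 8 marker lists were chosen with earlier results of these data known, and the motifs after the values were seen. Genes named by rule are the family, Id4, Pggt1b, up to 4 tested members of each pathway list (called first, then by p), up to 3 first or called markers of each cell type, and the 3 genes most correlated with each tested member, leaving out predicted genes, immune receptor segments and small RNAs. Other members of the lists, among them Pacsin1, Irf8, Klk1, Pax5, Ebf1 and Col1a1, were named outside this rule, after their values were seen. Alternatives covered filters, probe set choice, scaling, weights, covariates, moderation, threshold and left-out arrays. Summed intensities are sums of 2 to the power of the log2 value. The number of arrays limits the precision.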

Additional observations from a re-analysis of the deposited data

Results flagged for a closer look

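Among 64 groups of 4 arrays looked at, 4 held an array whose gap to its nearest neighbour took up most of the group's range, and chance alone gives about 1 in 20 such groups. None concerned the 6 family genes. Skp2 in KO replicate 1 stood at 7.83, against 7.61 to 7.63 in the other KO arrays. Smad3 in KO replicate 2 stood at 9.52, against 9.83 to 9.89 in the other KO arrays. Lmo2 in KO replicate 2 stood at 6.64, against 6.40 to 6.44 in the other KO arrays. Gfi1 in WT replicate 1 stood at 8.26, against 8.48 to 8.52 in the other WT arrays.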

How the results depend on the processing

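All tested family genes kept their direction under every setting, and Tcf3, Tcf4, Id2 and Id3 stayed at an unadjusted limma p under 0.05, so the settings decided only the adjusted calls. The number of family genes called, 4, was 3 or 4 under other scalings, weights, probe set averaging, a trend prior, the title number and a mean log2 of at least 6. It was 2 with no intensity filter or the heat-shock covariate, 1 over all probe sets, at an adjusted p under 0.01 or without WT replicates 2 and 3, and 0 without KO replicates 1 and 2 (limma, 4 at an unadjusted p under 0.05). Leaving out 1 array gave 1 to 2. Over all genes the count of 1503 was 920 with no intensity filter, 996 over all probe sets, 446 at 0.01, 874 with the heat-shock covariate, 258 without KO replicates 1 and 2, 295 without WT replicates 2 and 3, and 813 to 1441 without 1 array. The share of calls higher in KO, 34.3%, was 22.5% with arrays centred, 49.2% over all probe sets, 46.2% at 0.01, 52.7% without the KO pair and 50.8% without the WT pair. Of E protein targets, 1 was called with no filter, over all probe sets, at 0.01 and with the heat-shock covariate, 0 without either pair of arrays (5 without the KO pair and 6 without the WT pair at an unadjusted p under 0.05), and 1 to 3 without 1 array. Of genes of the inducing pathways, 1 was called over all probe sets and at 0.01 and 2 with the heat-shock covariate. Without either pair 0 of them were called (6 each at an unadjusted p under 0.05), and 2 to 4 without 1 array. Of stability genes, 1 was called with no filter, over all probe sets, at 0.01 and without the WT pair, and 1 to 3 without 1 array. Partners stayed at 0. Log2 differences where a call ended were, for Tcf3, -0.22 (no filter, all probe sets, 0.01), -0.19 (heat-shock covariate), -0.18 (without the KO pair) and -0.23 (without the WT pair), with -0.25 to -0.19 without 1 array. For Tcf4 it was -0.34 without the KO pair, with -0.36 to -0.30 without 1 array. For Id2 they were -0.37 (all probe sets, 0.01), -0.32 (without the KO pair) and -0.44 (without the WT pair), with -0.43 to -0.32 without 1 array. For Id3 they were 0.26 (no filter, all probe sets, 0.01, second quantile normalization), 0.22 (arrays centred), 0.24 (array weights), 0.28 (title number, heat-shock covariate, without the KO pair) and 0.32 (without the WT pair), with 0.20 to 0.29 without 1 array. The cause of these losses was not tested. No paired analysis was possible because the labels give no replicate numbers shared by the genotypes. No member had a further probe set of its own. Dim signal limits Id1.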
